A study of Homo sapiens with 18 samples.

Results

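The genes described here build and guard the protein supply of mitochondria: the translocases of the outer and inner membrane, their chaperones and import motor, the peptidase that removes import signals, and the proteases and prohibitins that police the imported proteins. They were taken by symbol from the deposited table, as every TOMM or TIMM gene with a number (with an A, B or L where it had one) together with SAMM50, the metaxins, GRPEL1, GRPEL2, PAM16, the processing peptidase, the named proteases and the prohibitins. The rule found 42 of 28394 genes, and 40 of them were among the 15447 genes with enough reads to be tested. The rule itself reads symbols only.

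The cells were HEK293T, an established human embryonic kidney line, in 3 stable versions that each carry 1 reporter under a Tet-inducible promoter. In the control line GFP was followed by the P2A peptide and the red fluorescent protein ChFP (GFP-P2A-ChFP). The poly-adenylate line carried GFP-P2A-poly-adenylate, and the 102xPR line carried GFP-P2A-102×PR, in which the reporter ends in 102 proline-arginine repeats. The series asked whether ribosome stalling on poly-adenylate gives the same transcriptional response as poly-PR. Each line was sampled uninduced and after 48 h with doxycycline at 500 ng/µl, the unit being that of the labels, which gave 6 groups of 3 polyadenylated RNA libraries. All 18 libraries share the HEK293T background and the Tet system, only the induced groups received doxycycline, and the labels do not say how many clones each line holds or whether the replicates were separate cultures. The p-values below therefore measure only the spread between these libraries, which may be technical.

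Most mitochondrial proteins are made in the cytosol and enter through the TOM complex of the outer membrane. From there, proteins with a presequence pass the TIM23 translocase and are drawn in by the motor around HSP70, carrier proteins are handed by the small TIM chaperones to the TIM22 translocase, and barrel proteins are inserted by SAM. In the matrix the processing peptidase MPP clips the presequence, LONP1 and the CLPX-CLPP protease degrade damaged proteins, and AFG3L2, YME1L1 and HTRA2 do so at the inner membrane and in the space outside it.

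The promoters of the members that rose most and fell most in induced 102xPR cells, among those with an entry in the RefSeq promoter table (GRCh38.p14), are shown because the report turns on genes of 1 machine moving in opposite directions. Each line gives the 200 bases before the annotated start, 5′ to 3′ on the gene's strand, with matches to an NRF1 core (GCGCANGCG), an ETS core (CCGGAAG), a YY1 motif (AAGATGGCG), a CRE (TGACGTCA) or an ATF4-C/EBP composite (TGATGNAA) on either strand in capitals. The regions are chr14:58427532-58427731 on the minus strand for TIMM9 and chr10:49941853-49942052 on the plus strand for TIMM23B. For TOMM7 the region is chr7:22822850-22823049 and for LONP1 chr19:5720147-5720346, both on the minus strand. The LONP1 region lies inside the annotated span of the gene (chr19:5691834-5720452), so its promoter start is not the outer end of that span.
TIMM9: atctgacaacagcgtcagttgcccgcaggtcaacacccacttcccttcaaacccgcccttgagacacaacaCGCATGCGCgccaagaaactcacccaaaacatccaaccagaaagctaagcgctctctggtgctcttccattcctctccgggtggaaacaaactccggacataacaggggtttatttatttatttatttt
TIMM23B: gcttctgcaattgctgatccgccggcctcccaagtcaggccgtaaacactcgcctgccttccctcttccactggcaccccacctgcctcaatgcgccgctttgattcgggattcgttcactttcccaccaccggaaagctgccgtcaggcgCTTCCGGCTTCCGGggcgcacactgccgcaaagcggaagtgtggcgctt
TOMM7: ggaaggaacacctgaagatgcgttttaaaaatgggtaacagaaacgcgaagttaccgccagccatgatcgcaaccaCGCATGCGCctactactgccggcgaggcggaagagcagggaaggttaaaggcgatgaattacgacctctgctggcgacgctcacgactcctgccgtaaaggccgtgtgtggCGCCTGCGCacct
LONP1: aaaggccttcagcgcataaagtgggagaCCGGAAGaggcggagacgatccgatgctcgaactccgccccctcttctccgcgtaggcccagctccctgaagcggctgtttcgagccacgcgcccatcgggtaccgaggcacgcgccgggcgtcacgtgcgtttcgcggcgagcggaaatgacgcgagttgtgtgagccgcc
TIMM9, which rose, and TOMM7, which fell, each hold the NRF1 core in the same spelling (CGCATGCGC), and an ETS core stands in TIMM23B, which rose, and in LONP1, which fell. TOMM5, the member with the lowest fold change, has no entry in the table. The choice rests on changes over all libraries. That of TOMM7 was −0.48, but −0.16 with the library set described below as a term, so TOMM7 is a weak example of a fall.

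Over windows of 250 bases before to 50 after the start, 37 of the 42 genes had a promoter in the table. The NRF1 core stood in 11 of them (29.7%), against 8.05% of all 27305 promoters. An ETS core stood in 17 (45.9%), against 10.7%, and the YY1 motif in 4 (10.8%), against 1.85%. The ATF4-C/EBP composite stood in 2 (5.41%, against 3.67%), PMPCB and TIMM22, and the CRE in 0 (against 1.98%). Split by the response to 102xPR described below, the NRF1 core was in 4 of 13 promoters of genes that rose, 4 of 10 of genes that fell and 2 of 12 of genes not called. The ETS core was in 6, 6 and 5 of the same promoters, so both stood in promoters of genes of either direction. These matches are letters in a window and were not tested as binding sites.

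Total counts ran from 15020739 to 27331102 per library, and the common biological coefficient of variation was 5.75%. HEK293T markers were present in every library (VIM at 229 to 435 and PAX2 at 6.02 to 11.5 CPM, counts scaled to library size), while the T cell gene CD3E had 0 counts throughout and ALB at most 26. The 3 induced 102xPR libraries stood apart on the first principal component of all genes (57.9% of the variance). The second component (7.61%) parted 8 libraries from the other 10, and the labels give no reason for it. Those 8, called the set of 8, were in the ChFP line every uninduced library and the third induced one, in the 102xPR line the induced replicates 1 and 2, and in the poly-adenylate line the uninduced replicates 2 and 3. Mitochondrially encoded transcripts made up 4.96 to 7.67% of counts in the set of 8 and 3.37 to 5.59% in the set of 10. Because the sets fall unevenly over the groups, in opposite order in the 102xPR line and in the other 2 lines, the calls that were lost with the set as a term or within the set of 10 are given that way too. In bulk RNA, fewer cells of a kind and less RNA per cell cannot be told apart, and all values are relative to the rest of the transcriptome.

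In uninduced ChFP cells the members spanned a wide range of levels. In CPM per kilobase of exon (exon lengths from GENCODE v29), TOMM6, a small subunit that helps assemble TOM, was highest at 356 ± 3.27 (SD, n = 3). The prohibitin PHB2 followed at 166 ± 5.04 and the presequence receptor TOMM20 at 157 ± 7.85. The receptor TOMM22 (114 ± 4.93) and the TIM23 channel subunit TIMM23 (115 ± 2.05) lay within their SD of each other. At the low end stood MTX3 at 7.4 ± 0.152, TIMM23B at 2.63 ± 0.429 and TOMM20L, a paralog of TOMM20, at 0.953 ± 0.403. TOMM20L had only 3 to 15 counts in a library, so none of its fold changes is precise. TIMM22, the channel of the carrier translocase, had 0 counts in all 18 libraries, where 3 counts would be 0.11 to 0.2 CPM, and PAM16, a J-like subunit of the import motor, had 4 counts in all. Both genes overlap another gene in the annotation (ABR and the read-through CORO7-PAM16), and how the counting treated such reads is unknown here. For TIMM22 the overlap is 153 bases, beside 3194 bases of exon, and ABR had 87 counts in the 18 libraries. PAM16 overlaps along 11071 bases. Why both genes had almost no counts was not tested, so their near absence is not taken as a measure of expression.

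Inducing 102xPR moved most of the import and protease genes, and in 6 of the 11 roles they were sorted into some rose while others fell. With edgeR's quasi-likelihood test and Benjamini-Hochberg adjustment at 0.05, 13 of the 40 tested members rose (32.5%, against 33.8% of all tested genes), 14 fell (35%, against 33.4%) and 13 were not called. These shares are near those of the whole transcriptome, so the number of calls is not particular to the members. Their changes were modest: the median absolute log2 fold change was 0.26 (0.38 over all genes), the median change −0.06 (−0.01 over all genes), and the range −0.50 to 0.98. In 13 of the 40 members (32.5%, against 27.2% of all genes), which are those called higher, the 3 induced 102xPR libraries lay above every one of the other 15 libraries. In 4 members (10%, against 25.4% of all genes), TOMM5, TIMM23, PMPCA and LONP1, they lay below all 15.

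**Figure D1:**
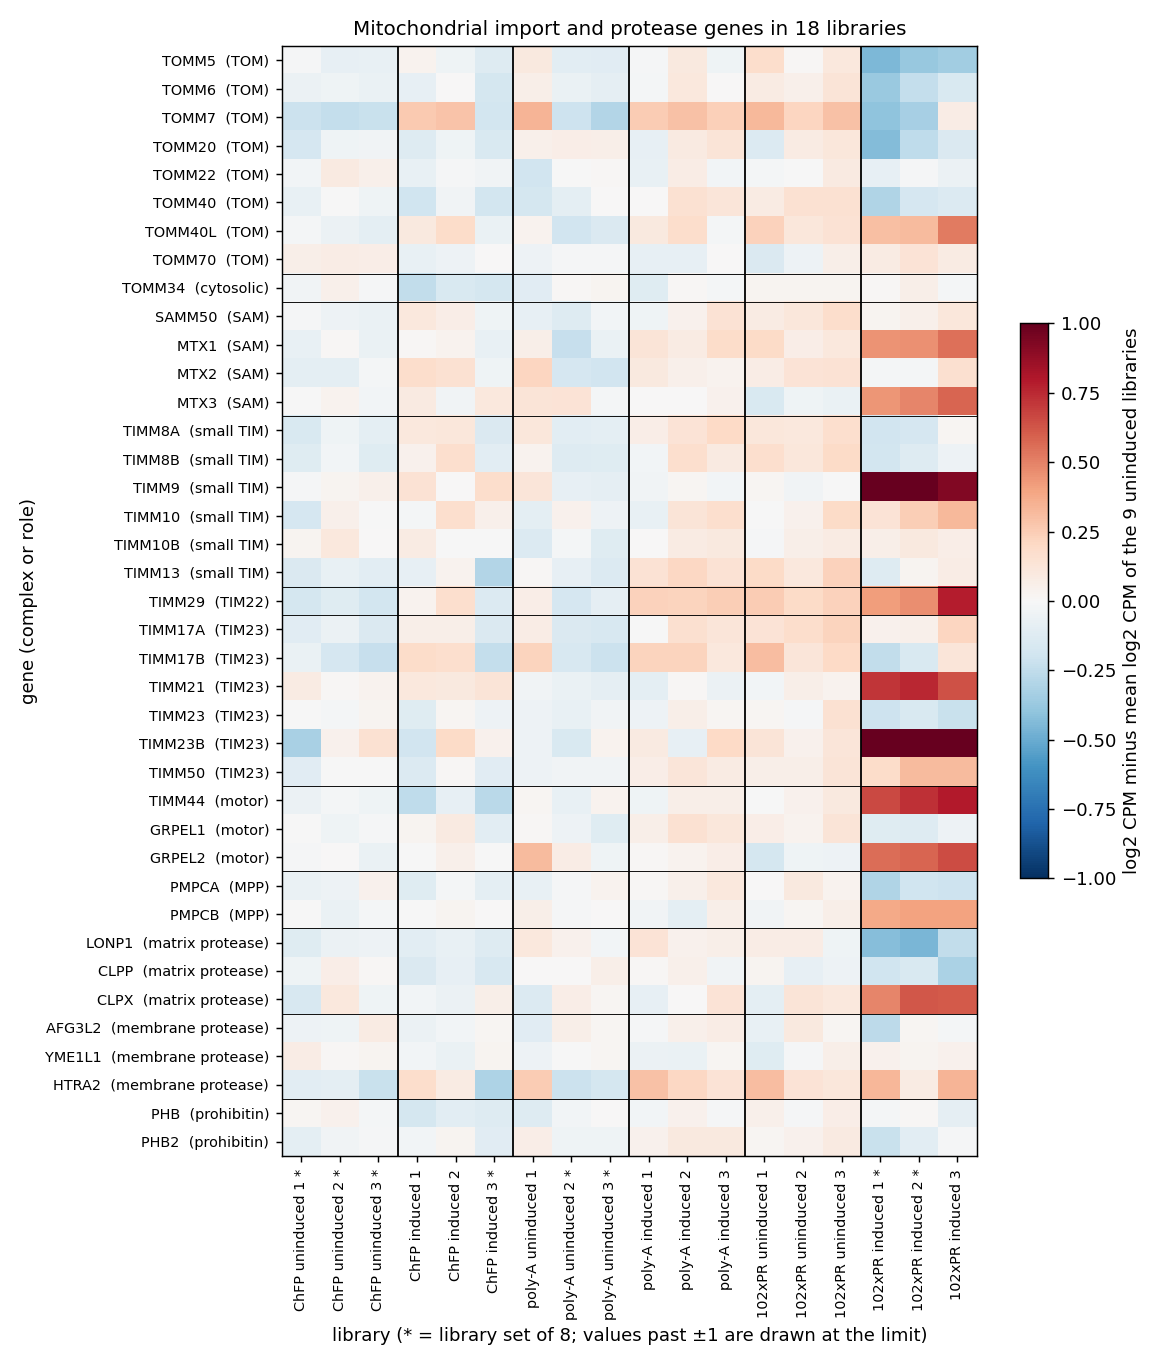
log2 CPM of 39 tested members (TOMM20L left out for its low counts) in each of the 18 libraries, minus the mean of the 9 uninduced libraries; red is higher, blue lower, values past ±1 are drawn at the limit, and asterisks mark the library set of 8. The last 3 columns, the induced 102xPR libraries, hold the strong reds (TIMM9, TIMM23B, TIMM44, GRPEL2, TIMM21, MTX3, CLPX) and the blues of TOMM5, LONP1 and PMPCA, while the row of TOMM7 follows the asterisks.

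At the outer membrane, 5 of the 9 TOM genes fell and 2 rose. TOMM5, TOMM6, TOMM7, TOMM20 and TOMM40 fell, TOMM40L and TOMM70 rose, and TOMM22 and TOMM20L were not called. TOMM5, a small subunit that stabilises the complex, measured 187, 167 and 178 CPM in the uninduced 102xPR libraries and 121, 127 and 130 CPM in the induced ones. The groups did not overlap, and the induced values also lay under the 151 to 187 CPM of the other 15 libraries. Its log2 fold change was −0.50 ± 0.06 (SE, edgeR adjusted p = 8.29e-08). TOMM40, the pore through which nearly all imported proteins pass, went from 322, 337 and 338 CPM to 246, 270 and 276 CPM, a change of −0.33 ± 0.06 on the log2 scale (edgeR adjusted p = 1.31e-05). TOMM6 changed by −0.34 ± 0.06 and TOMM20, which recognises presequences, by −0.30 ± 0.07 (edgeR adjusted p = 9.99e-06 and 0.000998). The change of TOMM20 was −0.24 ± 0.09 with the library set as a term (adjusted p = 0.027) and −0.17 ± 0.10 within the set of 10, where it was not called (adjusted p = 0.161). TOMM70, the receptor for carrier proteins and for preproteins brought by HSP90 and HSP70, moved the other way by 0.14 ± 0.05 (edgeR adjusted p = 0.0113). TOMM40L, the low-abundance paralog of the pore, rose by 0.22 ± 0.07 (edgeR adjusted p = 0.0103), but its adjusted p was 0.0855 without induced replicate 3 and 0.0503 without uninduced replicate 2. With the set as a term its rise was 0.35 ± 0.06, and within the set of 10 it was 0.35 ± 0.08. The adjusted p of TOMM70 was 0.109 without uninduced replicate 1 and 0.0521 without induced replicate 2, and within the set of 10 it was 0.151 (0.12 ± 0.07).

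TOMM7, a small subunit that regulates assembly of the complex, moved with the library sets. It measured 123 and 129 CPM in the 2 induced 102xPR libraries of the set of 8, 171 CPM in the 1 of the set of 10, and 203, 189 and 199 CPM uninduced. Over all groups it ran from 123 to 143 CPM in the set of 8 and from 171 to 206 CPM in the set of 10, with no overlap. Its fold change was −0.48 ± 0.17 over all libraries (edgeR adjusted p = 0.021), −0.16 ± 0.05 with the set as a term (adjusted p = 0.00234) and −0.21 ± 0.06 within the set of 10 (adjusted p = 0.00635). The call was lost without induced replicate 1 (adjusted p = 0.0838) or 2 (0.0745) or without uninduced replicate 1 (0.0551).

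The SAM complex and its metaxins changed less evenly. MTX3, a metaxin, went from 52.8, 56.8 and 56.1 CPM to 79.7, 82.4 and 87.6 CPM, above all other libraries (52.8 to 64.6 CPM), a log2 fold change of 0.59 ± 0.05 (edgeR adjusted p = 1.33e-09). MTX1, another metaxin of the outer membrane, rose by 0.36 ± 0.06 (edgeR adjusted p = 3.54e-05). MTX1 overlaps THBS3, whose own counts rose by 0.39 ± 0.11, and reads of overlapping genes cannot be told apart where the strand setting is unknown. The barrel insertase SAMM50 and MTX2 were not called (−0.06 ± 0.05 and −0.08 ± 0.08). The cytosolic cochaperone TOMM34 stayed at 119 to 126 CPM induced and 123 CPM in each uninduced library, with a 95% interval of the log2 fold change from −0.10 to 0.10.

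Among the small TIM chaperones, which ferry hydrophobic proteins across the intermembrane space, TIMM9 rose while TIMM8A, TIMM8B and TIMM13 fell. TIMM9 measured 33.6, 32.4 and 33.1 CPM uninduced and 66.3, 66.3 and 62.9 CPM induced, against 31.1 to 37.4 CPM in the other 15 libraries. This was the highest fold change of any member (0.98 ± 0.06 on the log2 scale, 1.97-fold, edgeR adjusted p = 1.06e-12), in the gene whose promoter with an NRF1 core is printed above. TIMM9 shares its locus with TOMM20L, which had few counts, and 132 bases with KIAA0586, which rose by 0.53 ± 0.07. Its partner in the hexamer that carries substrates, TIMM10, was not called (0.16 ± 0.07, edgeR adjusted p = 0.0513), although 10 of 16 alternative settings called it higher. TIMM8B, a paralog of TIMM8A, fell from 133, 128 and 135 CPM to 104, 108 and 114 CPM (−0.28 ± 0.06, edgeR adjusted p = 0.000374). With the library set as a term this was −0.18 ± 0.05. TIMM8A, which forms the other hexamer with TIMM13 and is mutated in deafness-dystonia syndrome, changed by −0.24 ± 0.07 and TIMM13 by −0.18 ± 0.06, and with the library set as a term their adjusted p rose to 0.14 and 0.233. TIMM13 also overlaps TMPRSS9, whose counts went up by 1.69 ± 0.20. TIMM10B was not called (0.03 ± 0.05).

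At the inner membrane, TIMM29, a metazoan subunit of the TIM22 translocase, rose by 0.34 ± 0.08 (edgeR adjusted p = 0.000868). The rise was 0.51 ± 0.06 with the set as a term and 0.56 ± 0.08 within the set of 10. In the fit with the set as a term the gene was lower in the set of 8 by 0.27 on the log2 scale. In the TIM23 complex, TIMM21, TIMM50 and TIMM23B rose, TIMM23 fell, and TIMM17A and TIMM17B were not called. TIMM21, which links TIM23 to TOM and to respiratory chain assembly, went from 38.3, 40.6 and 40 CPM to 64.2, 65.7 and 60.7 CPM. No other library exceeded 42.6 CPM, and the log2 fold change was 0.68 ± 0.05 (edgeR adjusted p = 3.07e-11). TIMM50, the presequence receptor of the complex, rose by 0.19 ± 0.05 (edgeR adjusted p = 0.0012). TIMM23, the channel subunit, went down by 0.25 on the log2 scale, from 143, 140 and 157 CPM to 122, 127 and 121 CPM (SE 0.05, edgeR adjusted p = 9.75e-05). Its near-copy TIMM23B went the other way, from 8.95, 8.45 and 8.89 CPM to 16.4, 17.9 and 17 CPM (0.97 ± 0.11, edgeR adjusted p = 2.57e-08). The transcripts of this pair share 55 exact windows of 100 bases, the read length, which is 4.9% of those of TIMM23 and 1.64% of those of TIMM23B, so how reads were divided between them is uncertain. TIMM17B, like TOMM7, split by library set with no overlap (84.5 to 95.6 CPM in the set of 8, 108 to 124 CPM in the set of 10), and its change of −0.30 ± 0.13 (edgeR adjusted p = 0.0519) was −0.05 ± 0.06 with the set as a term.

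Of the import motor, TIMM44, which tethers the motor to the channel, went from 110, 114 and 118 CPM to 174, 183 and 191 CPM. The induced values were far above the 91.8 to 118 CPM of the other 15 libraries (log2 fold change 0.68 ± 0.05, 1.6-fold, edgeR adjusted p = 5.65e-11). GRPEL2, the second of 2 human nucleotide exchange factors for mitochondrial HSP70, rose from 70.4, 77.1 and 76.6 CPM to 117, 119 and 125 CPM (0.69 ± 0.06, edgeR adjusted p = 1.8e-09). GRPEL1, the other exchange factor, was 93.7, 91.8 and 97.9 CPM uninduced and 82.6, 81.8 and 86.4 CPM induced (−0.18 ± 0.05, edgeR adjusted p = 0.00441), and this fall was not called with the library set as a term (adjusted p = 0.0646). GRPEL2 was the lower of the pair in the uninduced 102xPR libraries and the higher in every induced one.

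**Figure D2:**
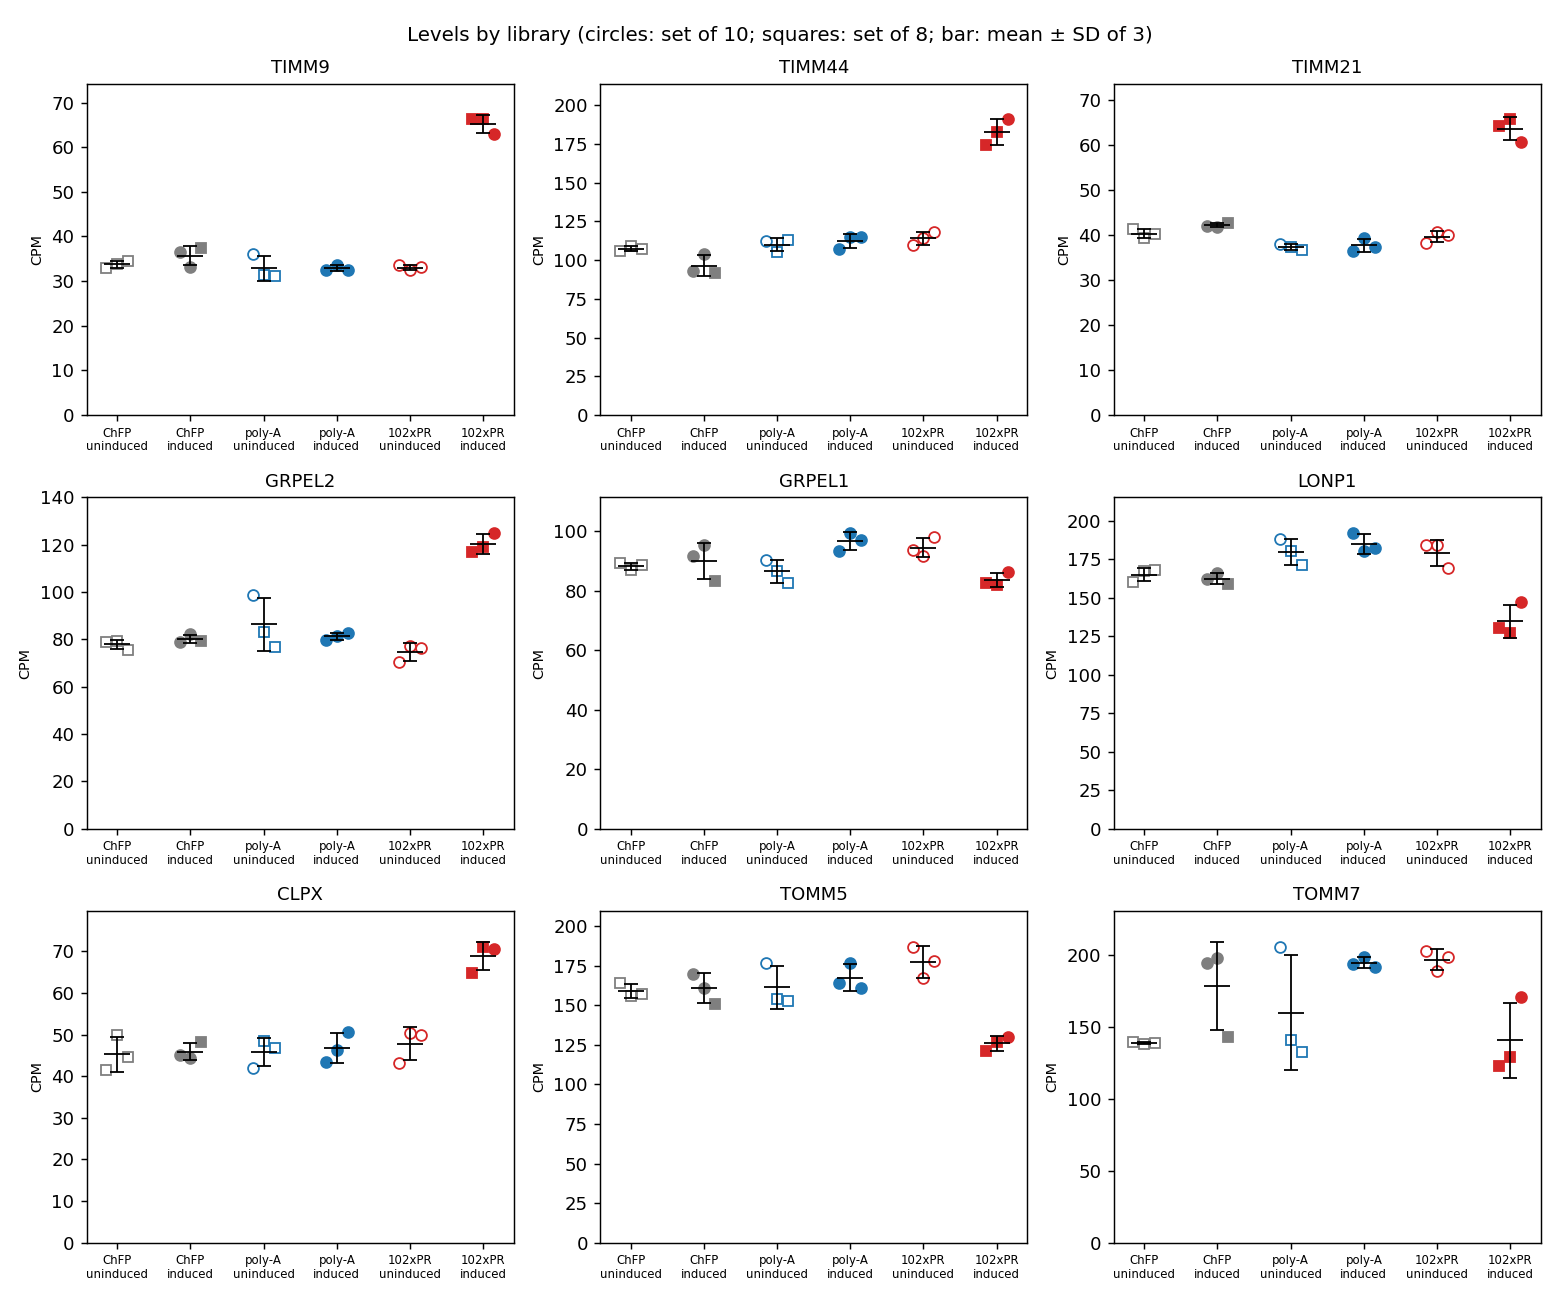
CPM of 9 members in the 18 libraries by group; open symbols are uninduced and filled symbols induced, squares mark the library set of 8, and bars are the mean ± SD of 3 libraries on axes that start at 0. TIMM9, TIMM44, TIMM21, GRPEL2 and CLPX are highest in the 3 induced 102xPR libraries, TOMM5 and LONP1 lowest, and the TOMM7 values split by symbol shape instead of by group.

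The plot of levels by library shows these members beside the proteases. LONP1, the main matrix protease, fell from 184, 184 and 169 CPM to 130, 127 and 147 CPM, below every other library (159 to 192 CPM). Its log2 fold change was −0.41 ± 0.05 (edgeR adjusted p = 3.46e-07), and −0.29 ± 0.07 within the set of 10. LONP1 is the gene printed above with an ETS core in its promoter. CLPX, the unfoldase that feeds CLPP, rose from 43.2, 50.5 and 49.8 CPM to 64.9, 71.1 and 70.5 CPM (0.53 ± 0.07, edgeR adjusted p = 1.1e-06). CLPP, the peptidase chamber itself, fell from 156, 145 and 148 CPM to 134, 138 and 123 CPM (−0.19 ± 0.05 on the log2 scale). The 2 chains of MPP also parted. PMPCB, the catalytic subunit, rose by 0.38 ± 0.05 (edgeR adjusted p = 1.01e-07). PMPCA, the substrate-binding subunit, fell by 0.28 (SE 0.05, edgeR adjusted p = 2.25e-05). The span of PMPCB overlaps DNAJC2 along 32479 bases and PSMC2 along 19, and how shared reads were counted is unknown. These neighbours changed by 0.08 ± 0.10 and 0.11 ± 0.05 and were not called. The 3 inner membrane and intermembrane space proteases were not called: AFG3L2 changed by −0.10 ± 0.06, YME1L1 by 0.06 ± 0.05 and HTRA2 by 0.07 ± 0.12. HTRA2 was called higher with the library set as a term (0.28 ± 0.08, adjusted p = 0.00375), and it overlaps AUP1 and LOXL3, which rose by 0.97 ± 0.05 and 0.68 ± 0.10. Of the ring-forming prohibitins, PHB2 fell by 0.16 (SE 0.05, edgeR adjusted p = 0.00582, but 0.0738 with the set as a term) and PHB was not called (−0.07 ± 0.04).

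Because several partners and paralogs moved apart, the log2 ratio of their counts was taken within each library, where library scaling cancels. An exact permutation test of 3 against 3 libraries cannot give a p below 0.1, and 10 pairs were compared in 3 lines, so no pair can pass a threshold of 0.05. GRPEL2 over GRPEL1 was 0.52 ± 0.02 (SD, n = 3) in induced and −0.34 ± 0.08 in uninduced 102xPR libraries, against −0.41 to 0.13 in the other 15 libraries (exact permutation p = 0.1). PMPCB over PMPCA was 0.23 ± 0.04 against −0.43 ± 0.05, with −0.55 to −0.26 elsewhere. TIMM23B over TIMM23 was −2.85 ± 0.04 against −4.06 ± 0.07, and TOMM40L over TOMM40 −2.41 ± 0.09 against −2.96 ± 0.10. In each of these 4 pairs all 3 induced 102xPR libraries lay above the other 15. Other lines also gave shifts with groups apart (exact permutation p = 0.1 each). Induced minus uninduced was 0.23 for TOMM40L over TOMM40 and 0.16 for PHB2 over PHB in ChFP cells. In poly-adenylate cells it was −0.24 for GRPEL2 over GRPEL1, −0.12 for PMPCB over PMPCA and −0.28 for MTX3 over MTX1. In 102xPR cells these pairs shifted by 0.55, −0.10, 0.86, 0.66 and 0.23 in the same order. PHB2 over PHB thus shifted further in ChFP cells, and MTX3 over MTX1 in poly-adenylate cells, than in 102xPR cells. The library set was not a term in these ratios. PHB2 over PHB was 0.25 and 0.23 in induced ChFP replicates 1 and 2, and 0.12 in replicate 3, of the other set. Uninduced poly-adenylate replicate 1 gave 0.3, and replicates 2 and 3, of the other set, gave 0.09 and 0.06. Over all libraries this ratio overlapped between sets. Whether the ChFP shifts of this pair and of TOMM40L over TOMM40 followed the set was not tested. Nor was this tested for TIMM17B over TIMM17A in 102xPR cells. CLPX over CLPP (−0.94 ± 0.12 against −1.65 ± 0.18) and TIMM9 over TIMM10 (0.08 ± 0.13 against −0.74 ± 0.11) behaved like the first 4 pairs. These 2 pairs were added after their values were seen. TIMM17B over TIMM17A was lower in induced than in uninduced 102xPR libraries (−0.89 ± 0.10 against −0.66 ± 0.12) and MTX3 over MTX1 higher (1.19 ± 0.02 against 0.96 ± 0.12). The induced 102xPR values of both pairs overlapped those of the other 15 libraries (−0.98 to −0.79 beside −0.80 to −0.46, and 1.16 to 1.2 beside 0.82 to 1.54). TIMM8B over TIMM8A (1.32 ± 0.05 against 1.37 ± 0.02) and PHB2 over PHB (0.02 ± 0.14 against 0.12 ± 0.05) overlapped between induced and uninduced libraries.

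**Figure D3:**
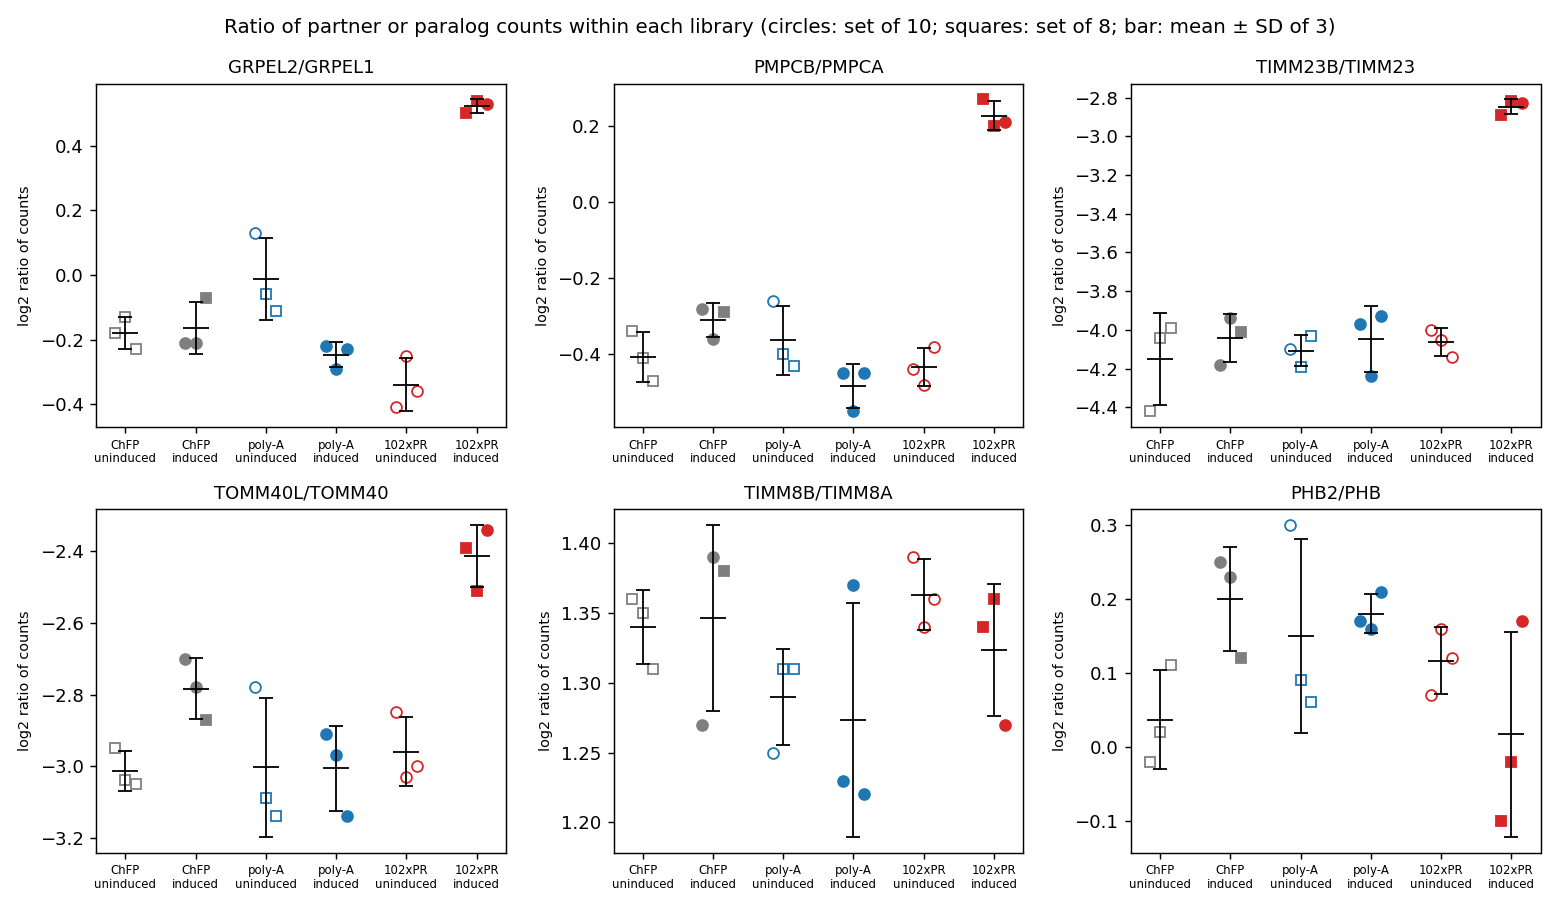
log2 ratio of the counts of 2 partner or paralog genes within each library, by group, with open symbols for uninduced, filled symbols for induced and squares for the library set of 8; bars are the mean ± SD of 3 libraries. In the upper row and for TOMM40L over TOMM40 the induced 102xPR libraries stand above all others, and for TIMM8B over TIMM8A and PHB2 over PHB they do not.

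The response of the members to poly-adenylate was not detectable at the chosen threshold. None of 40 rose or fell (0.816% and 0.265% of all genes did), and DESeq2 called 3 higher (TIMM13, TIMM29 and TOMM40), beside 391 of 15447 genes. An unadjusted p under 0.05 was reached by 12 members, all higher in induced cells, a share not counted over all genes. The median change of the members was 0.08 on the log2 scale (0 over all genes). TIMM13 changed by 0.23 ± 0.06 (edgeR adjusted p = 0.082), from 193, 181 and 174 CPM to 211, 221 and 211 CPM. With the library set as a term it changed by 0.12 ± 0.05 (edgeR adjusted p = 0.411), and 0 members were called. Uninduced poly-adenylate replicate 1 is the only uninduced library of that line in the set of 10, which holds all 3 induced ones. Without it, 10 members were called higher, TOMM7, TIMM17A, HTRA2 and MTX2 among them, beside 864 of 15682 genes. In that comparison library set and induction cannot be told apart. The members that rose most in 102xPR cells gave intervals around 0 here: the 95% interval of the log2 fold change was −0.13 to 0.13 for TIMM9, −0.07 to 0.14 for TIMM44 and −0.22 to 0.05 for GRPEL2.

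Inducing ChFP alone lowered 1 member of 40 (2.5%, against 0.887% of all genes) and raised 0 (against 1.13%). That gene, TOMM34, went from 118, 125 and 120 CPM to 102, 109 and 107 CPM (−0.19 ± 0.05, edgeR adjusted p = 0.0432). The groups did not overlap, but the call was lost with the library set as a term (adjusted p = 0.171) and without any 1 of the 3 uninduced libraries or of induced replicates 1 and 2 (adjusted p from 0.0936 to 0.222). With the set as a term the only call in this line was TIMM44, lower by 0.21 (adjusted p = 0.038), a gene that rose in 102xPR cells.

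**Figure D4:**
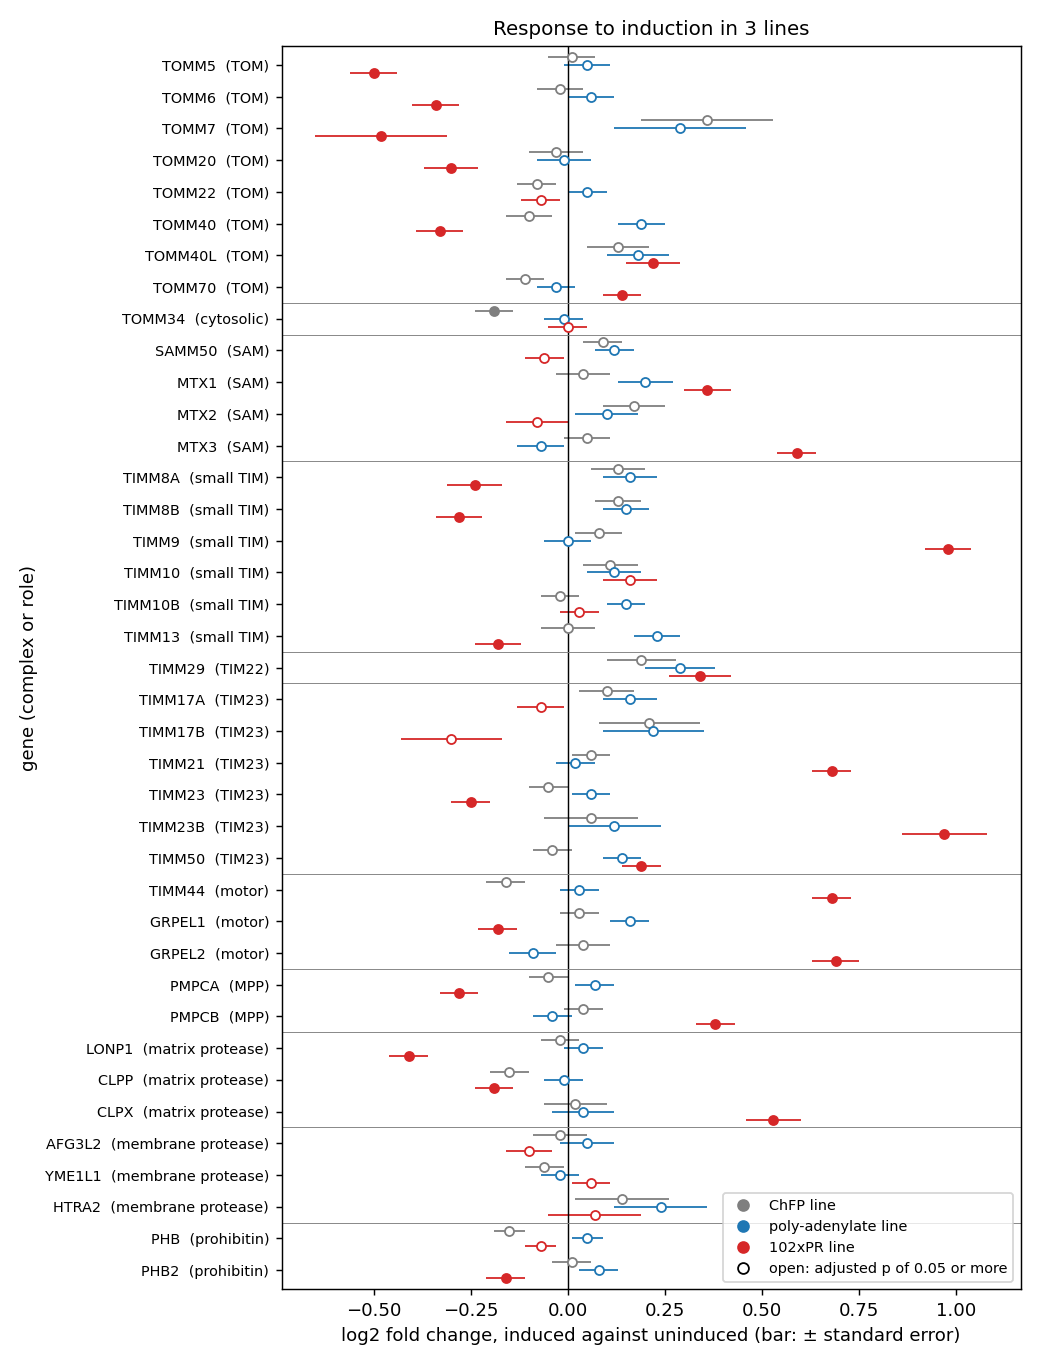
log2 fold change of induced against uninduced cells (± SE) for 39 tested members in the ChFP (grey), poly-adenylate (blue) and 102xPR (red) lines; filled points have an edgeR adjusted p under 0.05. Red points spread from −0.50 (TOMM5) to 0.98 (TIMM9), while 1 grey point, TOMM34, and no blue point is filled.

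The plot of responses in the 3 lines sets these values side by side, and the differences themselves were tested as interaction terms. The response to 102xPR exceeded that to ChFP in 12 members (30%, against 28% of all genes) and fell short of it in 13 (32.5%, against 30.3%). The log2 differences were 0.89 ± 0.08 for TIMM9, 0.84 ± 0.07 for TIMM44 and −0.85 ± 0.24 for TOMM7 (edgeR adjusted p = 7.68e-09, 2.63e-09 and 0.00814). That of TOMM7 holds the library set as well, which runs in opposite order in the 102xPR and ChFP lines. With the set as a term TOMM7 changed by −0.16 ± 0.05 in 102xPR cells and by 0.01 ± 0.05 in ChFP cells. With the library set as a term 5 members were called lower and 14 higher, beside 3719 and 3594 of 15447 genes. Without induced ChFP replicate 2 the lower calls numbered 7, beside 4379 of 15686 genes. The higher calls numbered 11 to 13 with any 1 library left out. Against the poly-adenylate response, 9 members were higher (22.5%, against 28.9% of all genes) and 17 lower (42.5%, against 29.6%). With the set as a term the lower calls numbered 11 of 40 members, beside 3771 of 15447 genes. In the fit without the set, the members' median difference was −0.14, against 0 over all genes. Both comparisons rest on the same 102xPR libraries and so are not independent. The poly-adenylate and ChFP responses differed for 0 of 40 members in either direction (0% and 0.0259% of all genes). At an unadjusted p under 0.05 in edgeR 7 members differed, a share not counted over all genes. DESeq2 called 1 member, TOMM40, higher, beside 100 of 15447 genes.

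Compared directly in induced cells, 16 members were higher in the 102xPR line than in the ChFP line (40%, against 32.9% of all genes) and 6 lower (15%, against 33.9%). TIMM23B (1.04 ± 0.11), TIMM44 (0.93 ± 0.05) and TIMM9 (0.87 ± 0.06) led the higher ones (edgeR adjusted p = 1.27e-08, 4.68e-13 and 9.09e-12). The lower ones were TOMM5, TOMM6, TIMM8B, TIMM23, PMPCA and LONP1, from −0.35 ± 0.06 for TOMM5 to −0.14 ± 0.05 for TIMM23. Their number was 2 without induced ChFP replicate 2, beside 4910 of 15686 genes. It was 3 without induced 102xPR replicate 1 (beside 4952 of 15623) and 10 without induced 102xPR replicate 3 (beside 5104 of 15643). In induced poly-adenylate cells 3 members were higher than in induced ChFP cells (7.5%, against 0.609% of all genes) and 0 lower (against 0.33%): TIMM44 by 0.22 ± 0.05, TOMM40 by 0.23 ± 0.06 and TIMM13 by 0.27 ± 0.07. Within the set of 10 none of the 3 was called.

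The lines also differed before induction. In uninduced 102xPR cells 7 members were higher than in uninduced ChFP cells (17.5%, against 7.35% of all genes) and 0 lower (against 4.83%): TIMM29, TIMM13, TIMM17A, TIMM8B, TIMM8A, TOMM40 and SAMM50, from 0.39 ± 0.09 to 0.17 ± 0.05. The 3 uninduced ChFP libraries all belong to the set of 8 and the 3 uninduced 102xPR libraries to the set of 10, so set and line cannot be told apart there. With the set estimated from the other groups no member was called, but neither was any of the 15447 tested genes. In uninduced poly-adenylate cells no member was called against uninduced ChFP cells (0.0971% and 0.00647% of all genes were). At an unadjusted p under 0.05 in edgeR 4 members differed, a share not counted over all genes.

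The set term itself was called in 16 of 40 members and in 3465 of 15447 genes, and all 16 were lower in the set of 8. The sets were drawn from a principal component of these same counts, so calls for the set are partly built in. They describe the split and do not test it. The largest of these differences were −0.50 for TOMM7, −0.38 for TIMM17B, −0.33 for HTRA2, −0.27 for TIMM29 and −0.26 for MTX2. Of the rises in 102xPR cells, 13 of 13 were still called with the set as a term, and 12 of 13 within the set of 10, where the 102xPR line has 1 induced library. Of the 14 falls, 10 and 9 were still called. Across 16 alternative settings, 11 of the rises and 8 of the falls were called every time.

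**Figure D5:**
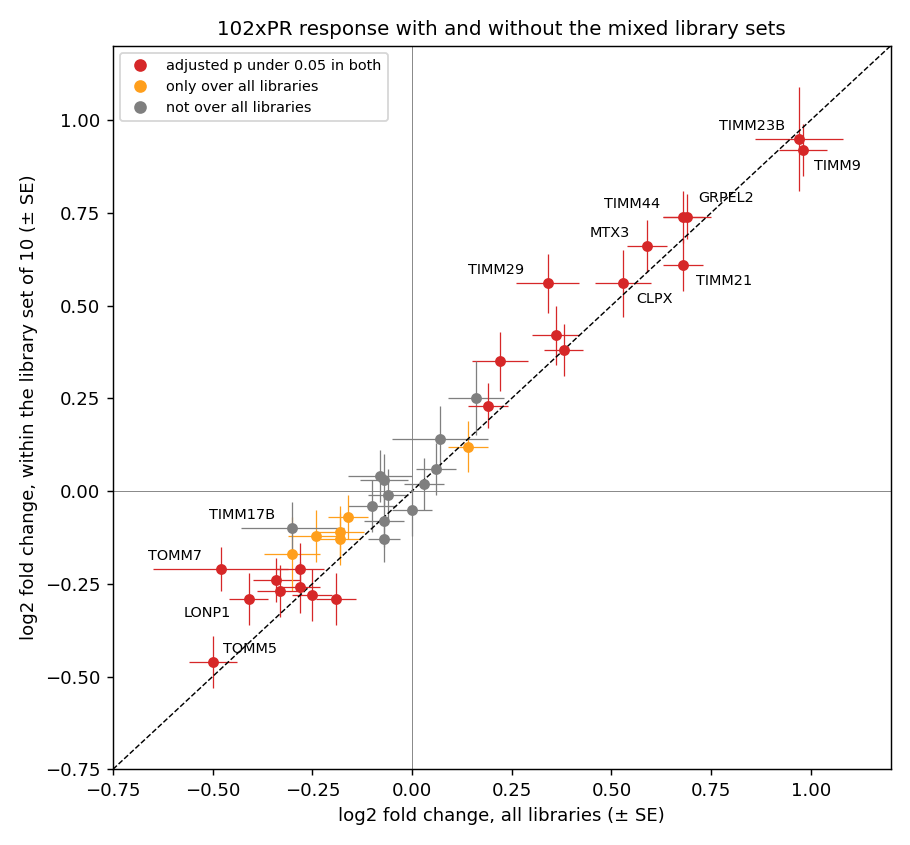
log2 fold change (± SE) of 39 members in induced against uninduced 102xPR cells over all libraries (x axis) and within the library set of 10 (y axis, 1 induced against 3 uninduced libraries), with a dashed line of equality; red points have an adjusted p under 0.05 in both fits, orange points over all libraries only. TIMM9 (0.92 against 0.98) and TIMM44 (0.74 against 0.68) lie near the line, TIMM29 lies above the line (0.56 against 0.34) and TOMM7 moves from −0.48 to −0.21.

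Genes that work with the members were read from the same fit, by lists written with earlier results of these data known. Over all tested genes 33.8% were called higher and 33.4% lower. Of 10 import partners, 5 rose in 102xPR cells (GFER, DNAJC11, OXA1L, AGK and CHCHD4) and 3 fell. GFER, the sulfhydryl oxidase of the intermembrane space import relay, went from 53.3 ± 4.28 to 86.8 ± 3.62 CPM (SD, n = 3; 0.70 ± 0.06 on the log2 scale). DNAJC11, a SAM and MICOS-linked J protein, rose by 0.51 ± 0.07, the insertase OXA1L by 0.34 ± 0.04 and AGK, a TIM22 subunit, by 0.40 ± 0.07. ROMO1 (−0.52 ± 0.15), the motor subunit DNAJC19 (−0.15 ± 0.05) and AIFM1 (−0.15 ± 0.05) fell, and the motor HSP70 itself, HSPA9, was not called (0.08 ± 0.05). Of 9 other peptidases 5 rose and 2 fell, with METAP1D, a mitochondrial methionine aminopeptidase, up by 1.07 ± 0.07, the rhomboid protease PARL up by 0.37 ± 0.07, and SPG7, the partner of AFG3L2, and the intermediate peptidase MIPEP changed by −0.29 ± 0.06 and −0.26 ± 0.07. Within the set of 10 DNAJC19, AIFM1, MIPEP and the rise of the peptidase PITRM1 (0.16 over all libraries, 0.06 there) were not called (adjusted p from 0.106 to 0.437).

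The matrix chaperones, which fold what the motor brings in, split as well. HSPD1 and HSPE1, the HSP60 and HSP10 pair, fell by 0.38 (SE 0.05) and 1.21 (SE 0.22), and TRAP1 by 0.27 (SE 0.05), all on the log2 scale. HSPE1 measured 116 ± 5.73 CPM uninduced and 50.5 ± 16.2 CPM induced, but also varied between 65.9 and 104 CPM among induced ChFP libraries. It moved with the library sets: its change was −0.81 ± 0.06 with the set as a term and −0.76 ± 0.08 within the set of 10. ROMO1 changed by −0.24 ± 0.06 and −0.32 ± 0.07 in those fits and MICOS10 by −0.22 ± 0.05 and −0.20 ± 0.07, all called. HSCB rose by 0.22 ± 0.09, and DNAJA3 was called higher on erratic counts of 26 to 299 in the 3 induced libraries (3.20 ± 1.04). Of 9 MICOS and prohibitin partners 2 rose (MAIP1 by 0.59 ± 0.08, CHCHD3 by 0.25 ± 0.05) and 3 fell (MICOS13 by 0.52, MICOS10 by 0.44 and APOO by 0.29). With the set as a term APOO was not called (−0.15 ± 0.08, adjusted p = 0.0741).

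Genes that clear stalled or mislocalised precursors numbered 10, of which 7 rose and 1 fell, beside 33.8% and 33.4% of all genes. Their median change was 0.33, against −0.01 over all genes. They included ATAD1, the ATPase that extracts mislocalised proteins from the outer membrane (0.40 ± 0.06), the ubiquilin UBQLN1 (0.40 ± 0.06) and the deubiquitinase USP30 (0.52 ± 0.08). PINK1, the kinase that accumulates on TOM when import fails, went from 34.5 ± 2.63 to 21.5 ± 0.392 CPM (−0.69 ± 0.07). Of 7 genes of the DELE1 and ATF4 stress signal, 5 rose and 0 fell. DDIT3 rose by 2.04 ± 0.15, CHAC1 by 2.16 ± 0.39, ATF5 by 0.88 ± 0.08, ATF4 by 0.74 ± 0.06 and TRIB3 by 0.55 ± 0.09. The relay DELE1 and the kinase EIF2AK1 were not called. With the library set as a term EIF2AK1 was called lower (−0.16 ± 0.05, edgeR adjusted p = 0.00388). Where the signal arose was not tested. In poly-adenylate cells the calls among the genes of these lists were MUL1, up by 0.25 ± 0.06, and ATF4, down by 0.27 (SE 0.06), and in ChFP cells there was none.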

How the data were processed

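For each gene and each of the 18 libraries the authors deposited a raw count, a whole number with no normalization. The submitters' processing notes name HISAT2 2.1.0, cutadapt 3.4, bcl2fastq 2.20.0.422, DESeq2 1.30.1, featureCounts and the build hg38. No source used here gives the annotation or the strand setting, so overlapping genes are uncertain. The labels' protocols describe a cleared detergent lysate with cycloheximide as the RNA source and single reads of 100 bases. The authors' 2 tables of comparisons were not used.

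From the counts, edgeR 4.0.16 (R 4.3.3) kept 15447 genes (filterByExpr, minimum count 10), scaled them with TMM factors and fitted 1 robust quasi-likelihood model over all 18 libraries with 1 term per group. It tested 10 contrasts, with Benjamini-Hochberg adjustment over all genes at 0.05. Of the 28394 genes, 550 had no symbol (0.041% of counts). Depth was 15020739 to 27331102 counts per library. Library sets are the sign of the second principal component of log2 CPM (prior count 2).

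The members and the gene lists were chosen with earlier results of these data known. All members may be named, and from each list up to 4 genes with the smallest adjusted p and any that moved against their list. A gene that this rule allows is not reported here. CHCHD4, MUL1, PITRM1, HSPA9, APOO, CHAC1, DELE1 and EIF2AK1, and the overlapping neighbours, were named after their values were seen. Alternatives were RLE factors, library totals, no filter or a minimum count of 50, DESeq2 1.42.0, only the groups compared, a replicate block, the library set as a term or alone, and each library left out. The set fits for the list genes and 2 gene pairs were added after their values were seen. The pairing check gave correlations of same-numbered libraries of 0.00212 to 0.166, so the numbers were not taken as pairs. No 2 libraries agreed within sampling noise (lowest chi-square per degree of freedom 1.88).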

Additional observations from a re-analysis of the deposited data

Results flagged for a closer look

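The response to induction differed between lines, by the interaction test of the difference itself (edgeR, adjusted p under 0.05), for the following members. Values are log2 differences of the 102xPR response from the response of the other line, in the fit without the library set. No explanation was tested, and the 2 comparisons share the 102xPR libraries. With the library set as a term, 14 members were called higher and 5 lower against the ChFP line, beside 3594 and 3719 of 15447 genes. Against the poly-adenylate line 11 were then called higher and 11 lower, beside 3643 and 3771 genes. In the fit with the set, TOMM7 changed by −0.16 in 102xPR, 0.01 in ChFP and −0.02 in poly-adenylate cells.

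Against the ChFP line, the 102xPR response of the TOM genes was lower by −0.51 for TOMM5, −0.32 for TOMM6, −0.85 for TOMM7, −0.27 for TOMM20 and −0.23 for TOMM40, and higher by 0.25 for TOMM70. It was higher by 0.19 for TOMM34, which fell with ChFP, and by 0.32 for MTX1 and 0.54 for MTX3. Among small TIM genes the difference was −0.37 for TIMM8A, −0.41 for TIMM8B and 0.89 for TIMM9. In TIM23 and the motor it was −0.50 for TIMM17B, 0.62 for TIMM21, −0.20 for TIMM23, 0.91 for TIMM23B, 0.23 for TIMM50, 0.84 for TIMM44, −0.20 for GRPEL1 and 0.65 for GRPEL2. Among peptidases and prohibitins it was −0.23 for PMPCA, 0.34 for PMPCB, −0.39 for LONP1, 0.51 for CLPX and −0.17 for PHB2.

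Against the poly-adenylate line, the differences in TOM and SAM were −0.55 for TOMM5, −0.40 for TOMM6, −0.77 for TOMM7, −0.29 for TOMM20, −0.52 for TOMM40, 0.17 for TOMM70, −0.18 for SAMM50 and 0.66 for MTX3. Among small TIM genes they were −0.40 for TIMM8A, −0.43 for TIMM8B, 0.98 for TIMM9 and −0.41 for TIMM13. In TIM23 and the motor they were −0.24 for TIMM17A, −0.52 for TIMM17B, 0.67 for TIMM21, −0.31 for TIMM23, 0.85 for TIMM23B, 0.65 for TIMM44, −0.34 for GRPEL1 and 0.77 for GRPEL2. Among peptidases and prohibitins they were −0.35 for PMPCA, 0.42 for PMPCB, −0.45 for LONP1, −0.17 for CLPP, 0.49 for CLPX and −0.25 for PHB2.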

How the results depend on the processing

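The numbers of members called are compared here across settings. Brackets give the calls in the same direction over all genes, of 15447 tested unless another total is stated. Those calls moved with the settings too. In the 102xPR response, 13 higher (5227) and 14 lower calls (5164) became 12 to 14 and 11 to 15 with a library left out. Over all genes these were 4918 to 5145 higher and 4801 to 5045 lower, of 15623 to 15700. The poly-adenylate response, with 0 higher calls (126), had 3 with DESeq2 (391), 1 with a replicate block (198) and 1 with block and set (125). It had 0 to 10 with a library left out, the 10 being without uninduced replicate 1 (864 of 15682). The ChFP response, with 1 lower call (137), had 0 with library totals (53), 3 with DESeq2 (344) and 0 in a fit of only the groups compared (134 of 14450). It had 2 with the replicate block (349) and 2 with block and set (264). With a library left out it had 0 to 2, the 2 being without induced replicate 3 (710 of 15688).

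For the 102xPR minus ChFP response, 13 lower calls (4674) became 5 with the set as a term (3719) and 7 with set and block (4046). They became 7 to 17 with a library left out, from 7 without induced ChFP replicate 2 (4379 of 15686) to 17 without replicate 3 (4560 of 15688). For poly-adenylate minus ChFP, 0 higher calls (0) became 1 with DESeq2 (100), 1 with the replicate block (17), 2 with the set (166) and 6 with both (601). For 102xPR minus poly-adenylate, 17 lower calls became 11 with the set and 9 within the set of 10. Between induced 102xPR and ChFP cells, 6 lower calls (5243) became 2 (4910 of 15686) to 10 (5104 of 15643) with a library left out. Between induced poly-adenylate and ChFP cells, 3 higher calls (94) became 0 with library totals (20), 5 with DESeq2 (297) and 0 with only the groups compared (11 of 14624). They became 6 with the set (310) and 10 with set and block (746). With a library left out they became 0 to 4, the 4 being without induced ChFP replicate 2 (292 of 15686). Between uninduced 102xPR and ChFP cells, 7 higher calls (1135) became 11 with DESeq2 (1400) and 18 with only the groups compared (2126 of 14803). They became 0 with the set (0), 0 with set and block (11), and 1 to 4 with a library left out (221 to 555, of 15687 to 15702). The 0 lower calls (746) became 0 to 1 with a library left out, the 1 being without uninduced 102xPR replicate 3 (321 of 15700).

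Directions reversed in 8 cases. In 102xPR minus ChFP, HTRA2, not called over all libraries, became 0.37 with the set as a term and 0.31 with set and replicate block, while TIMM17B, called lower over all libraries, became 0.01 with the set, and PHB2, also called lower, 0.01 with set and block. In 102xPR minus poly-adenylate TIMM17A became 0.02 with the set, 0.04 with set and block and 0.01 within the set of 10, and between uninduced 102xPR and ChFP cells TIMM8A became −0.01 with set and block. The cause was not tested. Of single-member values, 6621 kept direction and side of the threshold, 244 lost and 154 gained a call, and 8 reversed. Leaving out a library lets a pair of libraries stand for its group, and within a set 1 library can stand for a group, which is then assumed to vary like the others. Low counts limit TOMM20L, TIMM22 and PAM16.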
